A study of Mus musculus with 6 samples.

Results

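The genes described here encode host proteins that act against retroviruses: Fv1, 5 genes of the TRIM5-like cluster (Trim12a, Trim12c, Trim30a, Trim30d and Trim34a), Apobec3, Samhd1 and Bst2. They were chosen by name, and each was read from the probe set that carried its symbol alone, the brightest over the 6 arrays where there was more than 1. All 9 genes had such a probe set, among 19938 genes measured in this way. The set was put together with results of these arrays known, so its counts below are a description.

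Expression was compared between ♂M-1, ♂M-3 and ZM-1, 3 lines of mouse embryonic stem cells, each on 2 whole-transcript arrays that the labels give as biological repeats. The labels call them chromosome transfer cells. All lines were kept on gelatin in LIF with PD0325901, which blocks MEK, and CHIR99021, which blocks GSK3β. Neither the ♂M and ZM prefixes nor a strain, age or genotype is spelled out, and with a single ZM line, line and line type cannot be told apart. Nothing says that the repeats came from separate derivations, so p-values measure the spread between arrays of a line, which may be technical.

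Retroviruses are met by restriction factors at several steps of their life cycle. Fv1, a gene derived from the gag gene of an ancient endogenous retrovirus, acts on the incoming capsid of murine leukaemia viruses, the step at which primate TRIM5α acts as well. TRIM proteins combine a RING finger with B-box and coiled-coil domains, and many carry a B30.2 domain that in TRIM5α recognises the capsid. Apobec3 is a cytidine deaminase packaged into virions, SAMHD1 hydrolyses the deoxynucleotides that reverse transcriptase needs, and BST2, or tetherin, holds budding virions at the cell surface. Several of these genes are induced by interferon. Stem cells also keep retroelements silent through chromatin, by KAP1 (Trim28) and SETDB1.

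The arrays had similar distributions, with medians between 67.2 and 71.3 and lower quartiles between 23.8 and 25.1 intensity units. None of 10 stem cell markers lay below that quartile in any line. Compared with ZM-1, Utf1 was called as higher in ♂M-1, and Zfp42, Nanog and Utf1 in ♂M-3. These counts of 1 and 3 became 0 without any 1 array for ♂M-1 and ran from 1 to 2 for ♂M-3. The part of these markers in the differences below was not tested. Intensities are linear. Differences between lines are on the scale of log2(intensity + 1), tested with limma and adjusted by the Benjamini-Hochberg method over all 19938 genes, and a difference was called where the adjusted p lay under 0.05. Background levels were not used here, so no fold is given where a line's mean lay below the upper end of that quartile range.

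Both ♂M lines had less RNA than ZM-1 for Fv1, Trim12a, Trim30a, Trim34a and Bst2. Trim12c, Trim30d, Apobec3 and Samhd1 did not pass the test in either comparison. In ♂M-1 against ZM-1, 5 of the 9 members were lower and 0 higher by limma (7 and 0 at an unadjusted p under 0.05). Of all genes, 4.41% were called, 2.53% lower and 1.89% higher. The arrays of 7 members were all lower in ♂M-1 and those of 0 all higher, where the arrays of 48.9% of all genes did not overlap, 25.9% lower and 23.0% higher. In ♂M-3 against ZM-1, 5 members were lower and 0 higher by limma (8 and 0 unadjusted), where 15.9% of all genes were called, 7.20% lower and 8.66% higher. The arrays of 8 members were all lower in ♂M-3 and those of 1, Apobec3, all higher, beside 57.5% of all genes without overlap, 27.4% lower and 30.1% higher.

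The median log2 difference of the members from ZM-1 was −0.52 for ♂M-1 and −0.65 for ♂M-3, beside −0.01 and 0.00 for all genes. With arrays centred on their medians, 62.0% of the called genes were higher in the ♂M-1 comparison, where 42.7% were without centring, and 70.9% in the ♂M-3 comparison, where 54.6% were. The number of members called stayed at 5 in both. Both comparisons use the same ZM-1 arrays, so their counts share those arrays. In such cultures, fewer cells of a type and less RNA per cell cannot be told apart.

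Between the ♂M lines, Fv1 and Trim12a were higher in ♂M-1, and 0 members were lower by limma (4 higher and 0 lower unadjusted). Of all genes 6.54% were called, 3.22% higher and 3.32% lower. The arrays of 6 members were all higher in ♂M-1 and those of 1 all lower, beside 50.5% of all genes without overlap, 21.6% higher and 28.9% lower. Leaving out genes below the quartile in every line, such as Trim30d, the line means ran in the order ZM-1, ♂M-1, ♂M-3 from high to low in 6 of 8 members and in 20.7% of 16296 genes. Apobec3, read from the brighter of its 2 probe sets, and Samhd1 were the exceptions. The dimmer Apobec3 probe set followed the order, with means of 175 for ZM-1, 147 for ♂M-1 and 129 for ♂M-3.

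Other gene groups differed between the ♂M lines as well, where 3.22% of all genes were called as higher in ♂M-1 and 3.32% as lower. Of 12 fibroblast markers, 8 were called as higher in ♂M-1 than ♂M-3, or 5 without ♂M-3 replicate 2. Of 19 interferon-response genes, 7 were higher and 1 lower in ♂M-1, the last not called without ♂M-1 or ♂M-3 replicate 2. When every probe set was tested, 6 fibroblast markers were higher in ♂M-1, and 5 interferon-response genes were higher and 0 lower. The part of these groups in the differences of Fv1 and Trim12a was not tested.

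**Figure D1:**
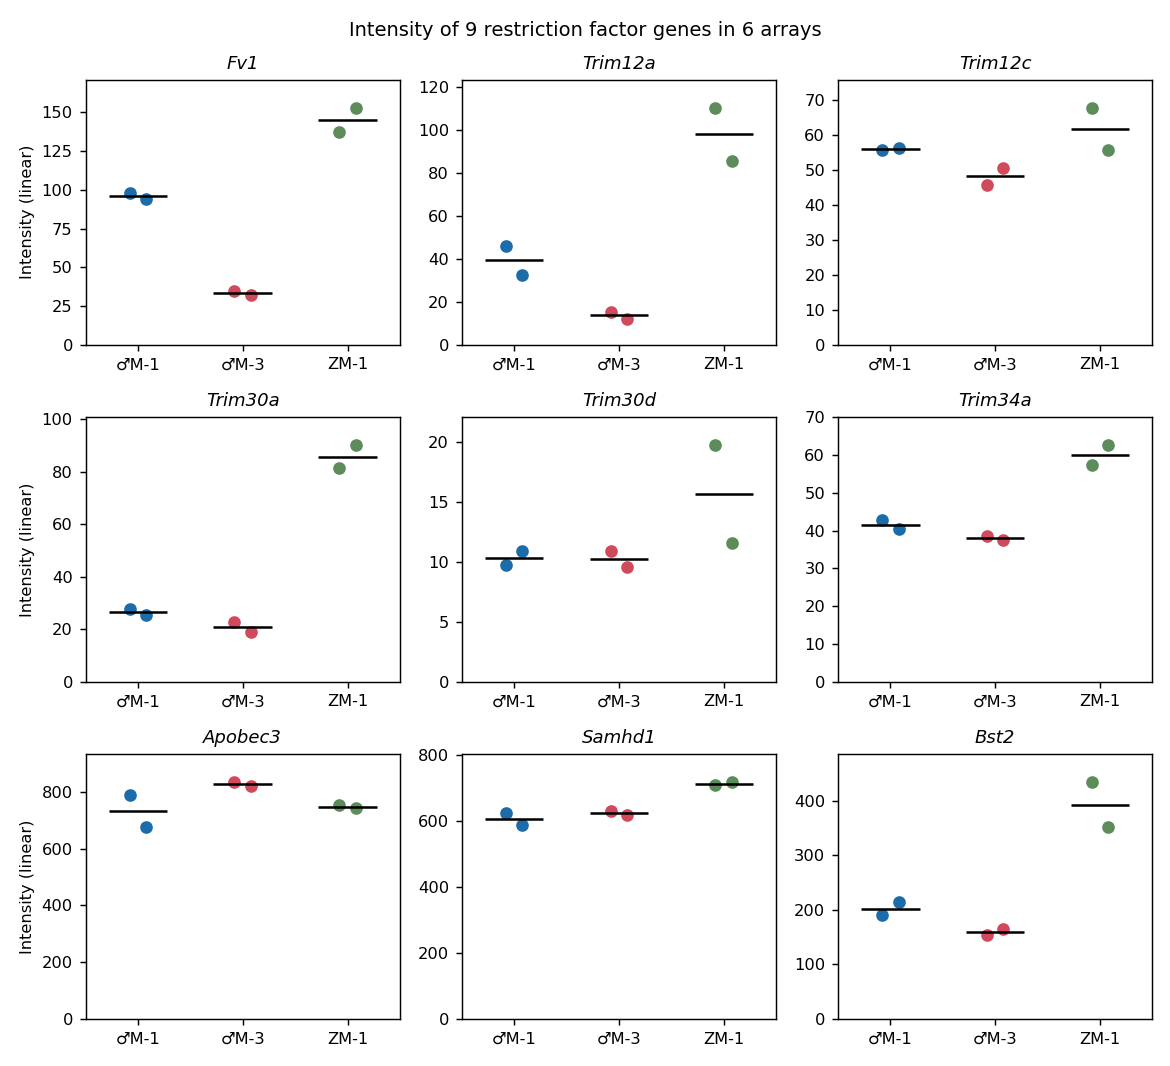
Linear intensity (y axes, each starting at 0) of the 9 genes on the arrays of ♂M-1, ♂M-3 and ZM-1 (x axes). Points are arrays and bars are line means. The ZM-1 arrays of Fv1, Trim12a, Trim30a, Trim34a and Bst2 lie above all arrays of the ♂M lines.

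Fv1, the capsid restriction gene, differed in every pair of lines. It measured 97.7 and 94.1 on ♂M-1 arrays, 34.8 and 32.1 on ♂M-3 arrays, and 138 and 153 on ZM-1 arrays. No arrays of different lines overlapped, and ♂M-3 lay far below the other lines. Fv1 was 4.24-fold lower in ♂M-3 than ZM-1 (log2 difference −2.08 ± 0.08, SE; limma adjusted p = 1.91e-06). For ♂M-1 it was 1.51-fold lower than ZM-1 (−0.59 ± 0.08, SE; adjusted p = 0.00571). The ♂M-1 call ended without ♂M-1 replicate 2 (adjusted p = 0.0693) and when all probe sets of the array were tested (0.0568). Between the ♂M lines, Fv1 was 2.81-fold higher in ♂M-1 (1.49 ± 0.08, SE; adjusted p = 5.22e-05).

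The gene whose pattern lay nearest to that of Fv1 was its neighbour on chromosome 4, Miip, which encodes an inhibitor of cell migration and invasion. Likeness was measured as the root mean square distance between log2 values centred on each gene's mean over the 6 arrays, and Miip had the smallest among 19929 genes outside the set, at 0.0946 log2 units. Miip measured 319 and 332 on ♂M-1 arrays, 114 and 121 on ♂M-3 arrays, and 492 and 468 on ZM-1 arrays. No arrays of different lines overlapped, and the lines were ordered as for Fv1. Against ZM-1, Miip was 1.47-fold lower in ♂M-1 (limma adjusted p = 0.00495) and 4.06-fold lower in ♂M-3 (adjusted p = 1.48e-06). Next in likeness to Fv1 were Ube2l6, an E2 enzyme for the interferon-induced modifier ISG15, at 0.150, and Ifi205, an interferon-activated gene, at 0.206.

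Fv1 and Miip are read in opposite directions, with annotated starts 260 bases apart. Of the 2 Miip start windows in the RefSeq table, the nearer shares 241 bases with the window of Fv1. The Fv1 window, from 250 bases before to 50 bases after the start, is shown because it covers most of the stretch between both starts. It lies at chr4:147868729-147869028 of GRCm38.p6 on the plus strand, and capitals mark the bases that also belong to the window of Miip, which is on the minus strand.
Fv1: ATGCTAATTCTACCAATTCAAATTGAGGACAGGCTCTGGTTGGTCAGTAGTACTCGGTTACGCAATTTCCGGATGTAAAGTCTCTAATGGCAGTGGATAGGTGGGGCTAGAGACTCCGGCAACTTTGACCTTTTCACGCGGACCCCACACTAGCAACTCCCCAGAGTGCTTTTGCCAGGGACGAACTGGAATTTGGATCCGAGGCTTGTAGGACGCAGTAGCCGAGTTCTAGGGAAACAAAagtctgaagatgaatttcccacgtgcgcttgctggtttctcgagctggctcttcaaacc

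The other genes around Fv1 were examined after the likeness to Miip had been seen, as the 5 nearest measured genes on each side. Mfn2, a mitochondrial fusion GTPase and the next gene on the other side of Fv1, averaged 294 ± 5.60 for ♂M-1, 249 ± 12.5 for ♂M-3 and 259 ± 23.1 for ZM-1 (SD, n = 2 each). It did not pass the test against ZM-1 (limma adjusted p = 0.279 for ♂M-1 and 0.743 for ♂M-3). Plod1, a collagen lysyl hydroxylase beyond Mfn2, was 1.44-fold lower in ♂M-1 and 1.62-fold lower in ♂M-3 than ZM-1 (adjusted p = 0.00500 and 4.03e-04), the first of which was lost without ♂M-1 replicate 2. Nppb, a natriuretic peptide gene, was 1.49-fold lower in ♂M-3 than ZM-1 (adjusted p = 0.00233).

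On the side of Miip, some zinc finger genes were called as higher. Zfp985 was 1.51-fold higher in ♂M-3 than ZM-1 (limma adjusted p = 0.00357) and did not pass in ♂M-1 (0.105). Zfp979 was 1.32-fold higher in ♂M-1 and 1.24-fold higher in ♂M-3 than ZM-1 (adjusted p = 0.0353 and 0.0400). The first of these Zfp979 calls was lost without any 1 of the 6 arrays, and the second without either ♂M-3 or either ZM-1 array. The others of the 10 flanking genes, Rps19-ps3, Zfp933, 2510039O18Rik and Nppa, were not called against ZM-1.

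**Figure D2:**
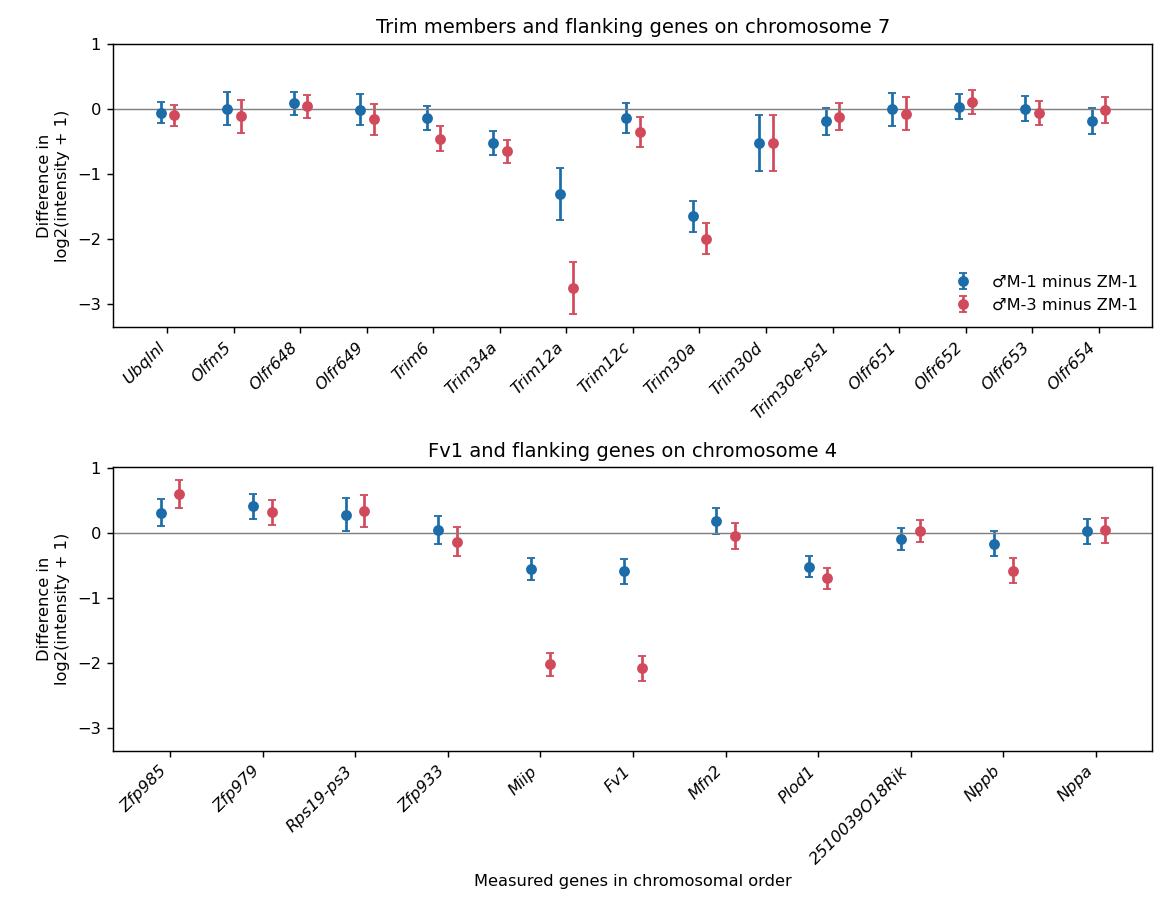
Difference in log2(intensity + 1) of ♂M-1 (blue) and ♂M-3 (red) from ZM-1, on the y axes, for measured genes in chromosomal order. The upper panel holds the Trim members with 5 genes on each side and the lower one Fv1 with 5 on each side. Bars are 95% confidence intervals from limma. Trim12a and Trim30a on chromosome 7 and the pair of Miip and Fv1 on chromosome 4 lie far below 0 for ♂M-3.

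Within the TRIM5-like cluster on chromosome 7, some genes were called and others were not. Trim12a is one of the mouse relatives of TRIM5. It measured 46.0 and 32.6 on ♂M-1 arrays, 15.3 and 12.0 on ♂M-3 arrays, and 110.2 and 85.6 on ZM-1 arrays. As with Fv1, no arrays of different lines overlapped. Trim12a was 2.47-fold lower in ♂M-1 than ZM-1 (log2 difference −1.31 ± 0.18, SE; limma adjusted p = 0.00450), a call lost when all probe sets were tested (0.0690). The ♂M-3 level lay below the lower quartile of the arrays, so those differences are given without a fold (adjusted p = 3.42e-05 for ♂M-3 against ZM-1 and 0.00202 for ♂M-1 against ♂M-3).

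Trim12c, the close copy of Trim12a, showed smaller differences. Its arrays read 55.7 and 56.3 for ♂M-1, 45.9 and 50.6 for ♂M-3, and 67.8 and 55.7 for ZM-1. The ♂M-1 and ZM-1 arrays overlapped, and those of ♂M-3 lay lowest. The log2 difference of Trim12c from ZM-1 was −0.13 for ♂M-1, with a 95% interval from −0.36 to 0.10 (limma adjusted p = 0.533). For ♂M-3 it was −0.34, with an interval from −0.58 to −0.11 (adjusted p = 0.0514), and it passed without ZM-1 replicate 2 (0.0174), with a pseudocount of 16 (0.0497), among genes above the 25th percentile (0.0353) and with an intensity trend in the variance prior (0.0488). Whether Trim12a and Trim12c differed from each other in these differences was not tested.

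Trim12a, Trim12c and Trim5 are near copies, and some probe sets carry several of these symbols, so their signals may be mixed. The probe set assigned to all 3 genes measured 48.4 and 44.5 on ♂M-1 arrays, 31.7 and 35.9 on ♂M-3 arrays, and 72.6 and 78.8 on ZM-1 arrays. The one assigned to Trim5 and Trim12c measured 37.4 and 32.5 on ♂M-1 arrays, 41.5 and 31.2 on ♂M-3 arrays, and 56.1 and 60.7 on ZM-1 arrays. In both, the ZM-1 arrays lay above all ♂M arrays. Among all probe sets, the first was lower in ♂M-3 than ZM-1 (log2 difference −1.14, limma adjusted p = 0.00504), and the second did not pass (−0.68, adjusted p = 0.0605). Neither passed in ♂M-1 against ZM-1 (adjusted p = 0.0524 for the first and 0.109 for the second).

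Trim30a is an interferon-induced gene of the cluster that in mouse macrophages restrains Toll-like receptor signalling. It read 27.9 and 25.6 on ♂M-1 arrays, 22.9 and 18.9 on ♂M-3 arrays, and 81.4 and 90.0 on ZM-1 arrays. The ZM-1 arrays stood clear of the others, and both ♂M lines were near the lower quartile. Trim30a was 3.13-fold lower in ♂M-1 than ZM-1 (log2 difference −1.65 ± 0.10, SE; limma adjusted p = 6.48e-05). It was also lower in ♂M-3, where its mean lay below the quartile (adjusted p = 1.18e-05). The ♂M lines did not pass against each other (log2 difference 0.34, 95% interval 0.11 to 0.58, adjusted p = 0.0985).

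Trim30d, a close relative of Trim30a, averaged below the quartile in every line. Its arrays read 9.79 and 10.9 for ♂M-1, 10.9 and 9.61 for ♂M-3, and 19.8 and 11.6 for ZM-1. A single ZM-1 array stood apart, and no pair passed (limma adjusted p = 0.180 for ♂M-1 and 0.0977 for ♂M-3 against ZM-1). Without ZM-1 replicate 2, which leaves the brighter array alone, it passed in both (0.00537 and 0.00195), so 1 array decides these values. The ♂M-3 difference also passed with an intensity trend in the variance prior (0.0393).

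Trim34a, another interferon-responsive gene of the cluster, read 42.8 and 40.4 on ♂M-1 arrays, 38.5 and 37.4 on ♂M-3 arrays, and 57.4 and 62.6 on ZM-1 arrays. The ZM-1 arrays lay above those of both ♂M lines. Compared with ZM-1 it was 1.43-fold lower in ♂M-1 (log2 difference −0.52 ± 0.08, SE; limma adjusted p = 0.00854) and 1.56-fold lower in ♂M-3 (−0.65 ± 0.08, SE; adjusted p = 0.00110). Its ♂M-1 call ended without ♂M-1 replicate 2 (adjusted p = 0.0868) and when all probe sets were tested (0.0605).

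Next to the members in chromosomal order lies Trim6, a TRIM gene whose intensity was far above the quartile in every line. Its arrays read 748 and 696 for ♂M-1, 567 and 592 for ♂M-3, and 827 and 759 for ZM-1. Trim6 was 1.37-fold lower in ♂M-3 than ZM-1 (log2 difference −0.45, limma adjusted p = 0.00718), though not once ♂M-3 replicate 1 was left out (0.0578), and did not pass in ♂M-1 (−0.14, adjusted p = 0.410). The pseudogene Trim30e-ps1 on the other side averaged 10.9 ± 1.24 for ♂M-1, 11.5 ± 0.739 for ♂M-3 and 12.5 ± 0.0758 for ZM-1 (SD, n = 2 each) and did not pass. None of the 4 genes beyond these on each side, among them 6 olfactory receptor genes, was called against ZM-1.

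Of 8 listed genes related or near to the members, 4 were measured, and Trim6 and Trim21 were called. Trim21, a cytosolic antibody receptor, was 1.62-fold lower in ♂M-1 and 2.14-fold lower in ♂M-3 than ZM-1 (limma adjusted p = 0.00441 and 1.45e-04). Its ♂M-1 call ended without ♂M-1 replicate 2 (adjusted p = 0.0539). Trim3 and Trim68 did not pass in any pair.

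Start windows of the members were searched on both strands for the core of the interferon-stimulated response element, spelled GAAA, any 2 bases, then GAAA. The search was made because Trim30a, Trim34a and Bst2 are known to be induced by interferon. All 9 members had at least 1 window in the RefSeq table, 11 windows in total. The core was present in 8 of these windows, in 7 genes, beside 3.44% of all 32851 windows of the same length. The windows of Trim12a and Trim12c are near copies, as are those of Trim30a and Trim30d, so the 8 are not separate observations. The core was found in the windows of all 5 Trim members, of Bst2 and, in 1 of 2 windows, of Apobec3. It was not among the letters of the Fv1 and Samhd1 windows. The core stretches with 5 flanking bases on each side are printed in the direction of the gene, from GRCm38.p6, with the core in capitals, to show how alike they are among the Trim genes.
Trim12a: tgtggTTTCTGTTTCatttc
Trim12c: tgtggTTTCTGTTTCatttc
Trim30a: tttagTTTCTTTTTCtcagt
Trim30d: tttagTTTCTTTTTCtcagt
Trim34a: tggagTTTCAGTTTCttttc
Apobec3: gttagTTTCCCTTTCtcttt
Bst2: tccagGAAAATGAAACTGAAAggctg

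In the Trim genes and Apobec3 the core runs on the strand opposite to the gene, and in Bst2 there are 2 overlapping cores on the same strand as the gene. The stretch was identical in Trim12a, called in every pair of lines, and Trim12c, called in none. It was also identical in Trim30a and Trim30d. The core began 11 bases into the transcribed part in Trim12a and Trim34a, and 29 bases before the start in Trim12c. The gamma-activated site, searched as TTC, any 3 bases, then GAA, was present in the windows of Bst2 and Samhd1 and in 8.30% of all windows. In Bst2 it overlapped the first core.

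The whole windows of Trim12a and Trim12c are shown because these copies differed in their test results but share most of their bases. They lie on the minus strand of GRCm38.p6 at chr7:104315446-104315745 for Trim12a and chr7:104353300-104353599 for Trim12c, and capitals mark the core. In an alignment with gaps, 247 of the 300 bases of a window were paired with the same base, or 82.3%. The first Trim30a window and that of Trim30d shared 92.3%, and pairs of different subfamilies in the cluster between 51.0% and 59.0%.
Trim12a: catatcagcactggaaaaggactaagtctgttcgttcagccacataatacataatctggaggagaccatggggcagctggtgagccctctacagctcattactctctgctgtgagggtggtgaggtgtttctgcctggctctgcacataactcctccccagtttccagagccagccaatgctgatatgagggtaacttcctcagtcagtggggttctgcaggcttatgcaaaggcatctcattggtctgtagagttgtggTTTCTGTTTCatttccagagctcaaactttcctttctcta
Trim12c: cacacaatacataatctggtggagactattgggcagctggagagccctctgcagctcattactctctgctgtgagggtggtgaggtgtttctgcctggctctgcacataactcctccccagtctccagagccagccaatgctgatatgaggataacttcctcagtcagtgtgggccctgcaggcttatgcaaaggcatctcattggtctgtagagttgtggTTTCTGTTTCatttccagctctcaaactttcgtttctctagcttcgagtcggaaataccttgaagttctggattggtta

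Bst2, the virion tether, read 190 and 214 on ♂M-1 arrays, 154 and 164 on ♂M-3 arrays, and 434 and 352 on ZM-1 arrays. The lowest ZM-1 array lay above the highest array of either ♂M line. Bst2 was 1.93-fold lower in ♂M-1 than ZM-1 (log2 difference −0.95 ± 0.11, SE; limma adjusted p = 0.00199) and 2.45-fold lower in ♂M-3 than ZM-1 (−1.29 ± 0.11, SE; adjusted p = 1.43e-04). The log2 difference between ♂M-1 and ♂M-3 was 0.34, with a 95% interval from 0.09 to 0.59 (adjusted p = 0.118), and it passed among genes above the 50th percentile (0.0438) and with an intensity trend in the variance prior (0.0469).

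Apobec3 was read from the brighter of 2 probe sets. Its arrays read 790.0 and 677 for ♂M-1, 834 and 823 for ♂M-3, and 753 and 743 for ZM-1. The ♂M-1 arrays fell on both sides of the ZM-1 arrays, and those of ♂M-3 lay above all others. No pair passed, and the 95% intervals of the log2 difference from ZM-1 ran from −0.23 to 0.17 for ♂M-1 and from −0.05 to 0.35 for ♂M-3. The dimmer probe set read 147 and 146 on ♂M-1 arrays, 136 and 122 on ♂M-3 arrays, and 179 and 171 on ZM-1 arrays, so here ♂M-3 lay lowest. Tested among all probe sets, it was lower in ♂M-3 than ZM-1 (log2 difference −0.44, limma adjusted p = 0.0427) and did not pass in ♂M-1 (−0.25, adjusted p = 0.235). As the probe sets disagree on ♂M-3, no direction is given for the gene.

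Samhd1 read 624 and 586 on ♂M-1 arrays, 629 and 617 on ♂M-3 arrays, and 707 and 716 on ZM-1 arrays. The ZM-1 arrays lay above the others. The log2 difference from ZM-1 was −0.23 for ♂M-1, with a 95% interval from −0.40 to −0.06 (limma adjusted p = 0.125), and −0.19 for ♂M-3, from −0.36 to −0.02 (adjusted p = 0.122). The ♂M-1 difference passed with an intensity trend in the variance prior (0.0340) and among genes above the 50th percentile (0.0442). The ♂M-3 difference passed under the same settings (0.0443 and 0.0482) and after quantile normalization (0.0380).

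**Figure D3:**
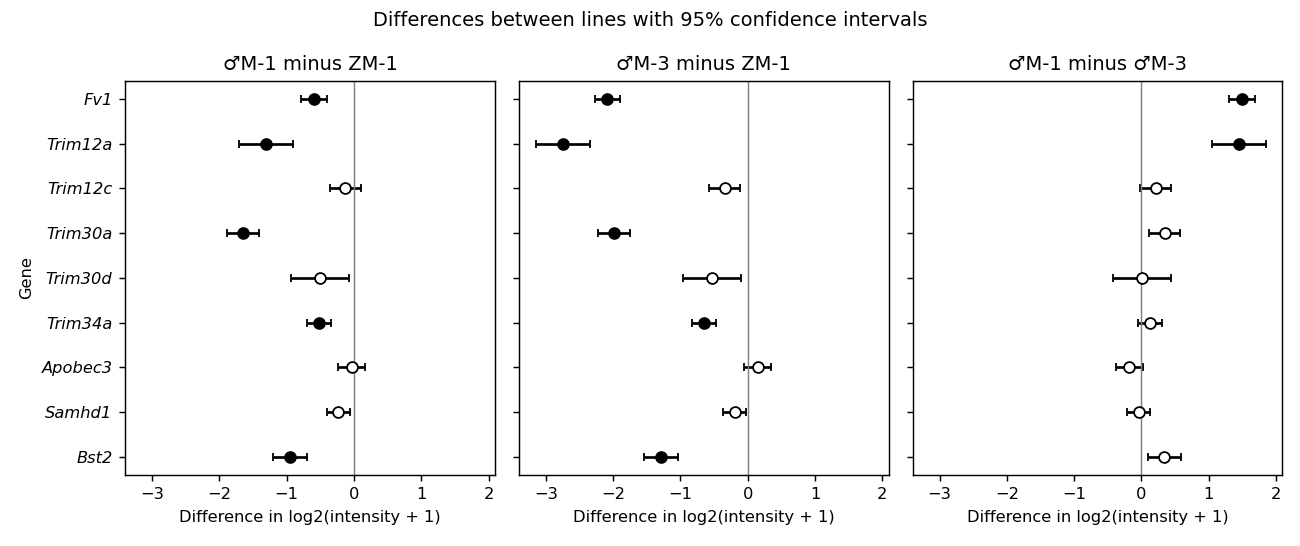
Differences in log2(intensity + 1) between lines (x axes) for the 9 genes (y axis), with 95% confidence intervals from limma. Filled points passed an adjusted p of 0.05 over all genes. Fv1 and Trim12a are filled in all 3 panels, and Trim30a, Trim34a and Bst2 in both comparisons with ZM-1.

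The patterns nearest to the other members with line means at least 1 log2 unit apart were found in the same way as for Fv1. Trim30a lay nearest to Tnn, a tenascin, at 0.109 log2 units, then to the protease gene Ctsh at 0.144 and to Zbp1, a nucleic acid sensor induced by interferon, at 0.154. Zbp1 read 82.7 and 84.1 on ♂M-1 arrays, 72.9 and 75.8 on ♂M-3 arrays, and 304 and 272 on ZM-1 arrays. Bst2 lay nearest to Nmi, an interferon-induced partner of STAT proteins, at 0.0729, then to the chemokine gene Ccl3 at 0.0733 and to the nuclear body gene Sp100 at 0.0819. The nearest to Trim12a were Pttg1 (securin) at 0.223, Lgals3bp at 0.233 and Dcn, a fibroblast marker, at 0.253. These distances rest on 6 arrays of 3 lines. Those of Trim12a and Trim30a include ♂M-3 values of the member below the quartile, so they are not compared with those of Fv1 and Bst2. Ifi205, given for Fv1, and Sp100, given for Bst2, also averaged below the quartile in ♂M-3, at 19.9 and 21.8.

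Other restriction factors were taken from a list that does not contain the members, and 24 of its 28 genes were measured. In ♂M-1 against ZM-1, 11 were lower and 1 higher, beside 2.53% and 1.89% of all genes. In ♂M-3 against ZM-1, 13 were lower and 2 higher, beside 7.20% and 8.66%. When every probe set was tested, 5 were lower in ♂M-1 and 9 in ♂M-3 than ZM-1. The ♂M-1 count of lower genes was 7 without ♂M-1 replicate 1 and 5 without ♂M-1 replicate 2. The ♂M-3 count of higher genes was 1 without any 1 array other than ZM-1 replicate 1, and the ♂M-1 count was 2 without that array. Median log2 differences of the list were −0.36 for ♂M-1 and −0.32 for ♂M-3.

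Between the ♂M lines, 2 genes of that list were called as higher in ♂M-1 and 1 as lower, beside 3.22% and 3.32% of all genes. Ifi203 and Ifitm3 were higher, and Slfn9 was lower. Slfn8 and Rsad2 did not pass there (limma adjusted p = 0.368 and 0.912). Ifi203 was called as higher in ♂M-1 (adjusted p = 0.0374), with a ♂M-3 mean below the quartile. When every probe set was tested, 0 genes of the list were called as higher in ♂M-1 than ♂M-3. Slfn9, of the Schlafen family, averaged 70.1 ± 2.61 for ♂M-1, 117 ± 6.81 for ♂M-3 and 252 ± 15.3 for ZM-1 (SD, n = 2 each), and it was lower in ♂M-1 than ♂M-3 as well (limma adjusted p = 0.00144). Slfn8, of the same family, was 2.82-fold lower in ♂M-3 than ZM-1 (adjusted p = 1.13e-04) and lower in ♂M-1, where it averaged below the quartile (1.22e-04). Rsad2, or viperin, an inhibitor of many viruses, was 2.40-fold lower in ♂M-1 and 2.47-fold lower in ♂M-3 than ZM-1 (adjusted p = 0.00144 and 4.25e-04). Ifi203, an interferon-activated gene of the PYHIN family, averaged 33.7 ± 7.06 for ♂M-1, 19.2 ± 5.79 for ♂M-3 and 83.4 ± 0.252 for ZM-1 (SD, n = 2 each). Ifi203 was lower in both ♂M lines than ZM-1 (adjusted p = 0.00561 for ♂M-1 and 1.69e-04 for ♂M-3), and its ♂M-1 call ended without ♂M-1 replicate 2 (0.0724).

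Some genes of that list went the other way or were not called. Ifitm1, an interferon-induced membrane protein that blocks virus entry, was called as higher in both comparisons and is named after its values were seen. It was 1.56-fold higher in ♂M-1 and 1.86-fold higher in ♂M-3 than ZM-1 (limma adjusted p = 0.00182 and 1.21e-04). Ifitm3, also named after its values were seen, was 1.26-fold lower in ♂M-3 than ZM-1 (limma adjusted p = 0.0208). It did not pass in ♂M-1 against ZM-1 (0.598) and was 1.33-fold higher in ♂M-1 than ♂M-3 (0.0147). Ifitm2 did not pass in any pair, nor did the retroelement helicase Mov10, which averaged 1962 ± 22.3 for ♂M-1, 1943 ± 33.0 for ♂M-3 and 1819 ± 50.5 for ZM-1 (SD, n = 2 each).

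Genes that silence retroelements in chromatin were called at a share near or below that of all genes. Of 24 measured, limma called 0 in ♂M-1 against ZM-1 (1 higher and 1 lower at an unadjusted p under 0.05), beside 4.41% of all genes. In ♂M-3 against ZM-1, 2 were lower, Resf1 at 1.25-fold and Dnmt3l at 1.21-fold (limma adjusted p = 0.0179 and 0.0448), beside 15.9% of all genes called. With an intensity trend in the variance prior, 4 were higher and 3 lower in that comparison. Both ♂M-3 calls were lost without either ♂M-3 array or without ZM-1 replicate 2, and that of Dnmt3l also without any other array and after median centring. The median log2 differences of the list were 0.01 for ♂M-1 and 0.00 for ♂M-3. Trim28 averaged 3699 ± 57.5 for ♂M-1, 3794 ± 86.2 for ♂M-3 and 3397 ± 31.9 for ZM-1 (SD, n = 2 each) and did not pass in any pair. Between the ♂M lines, Dnmt3l and the chromatin remodeller Atrx were 1.33-fold and 1.30-fold higher in ♂M-1 (limma adjusted p = 0.0167 and 0.0280), calls lost without any 1 of the 4 ♂M arrays.

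Of 15 measured entry receptors and host cofactors used by retroviruses, limma called 0 against ZM-1 in either line, beside 4.41% of all genes for ♂M-1 and 15.9% for ♂M-3. With an intensity trend in the variance prior, 2 were higher for ♂M-1, and 4 were higher and 2 lower for ♂M-3. Among genes above the 50th percentile, 3 were higher and 1 lower for ♂M-3. At an unadjusted p under 0.05, 1 was higher and 0 lower for ♂M-1, and 3 were higher and 2 lower for ♂M-3. Slc7a1, the amino acid transporter through which ecotropic murine leukaemia virus enters, averaged 649 ± 50.4 for ♂M-1, 824 ± 0.323 for ♂M-3 and 701 ± 27.0 for ZM-1 (SD, n = 2 each). It was lower in ♂M-1 than ♂M-3 (log2 difference −0.34, limma adjusted p = 0.0406), a call lost without any 1 of the 4 ♂M arrays. Ppia, or cyclophilin A, a partner of some retroviral capsids, did not pass in any pair.

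**Figure D4:**
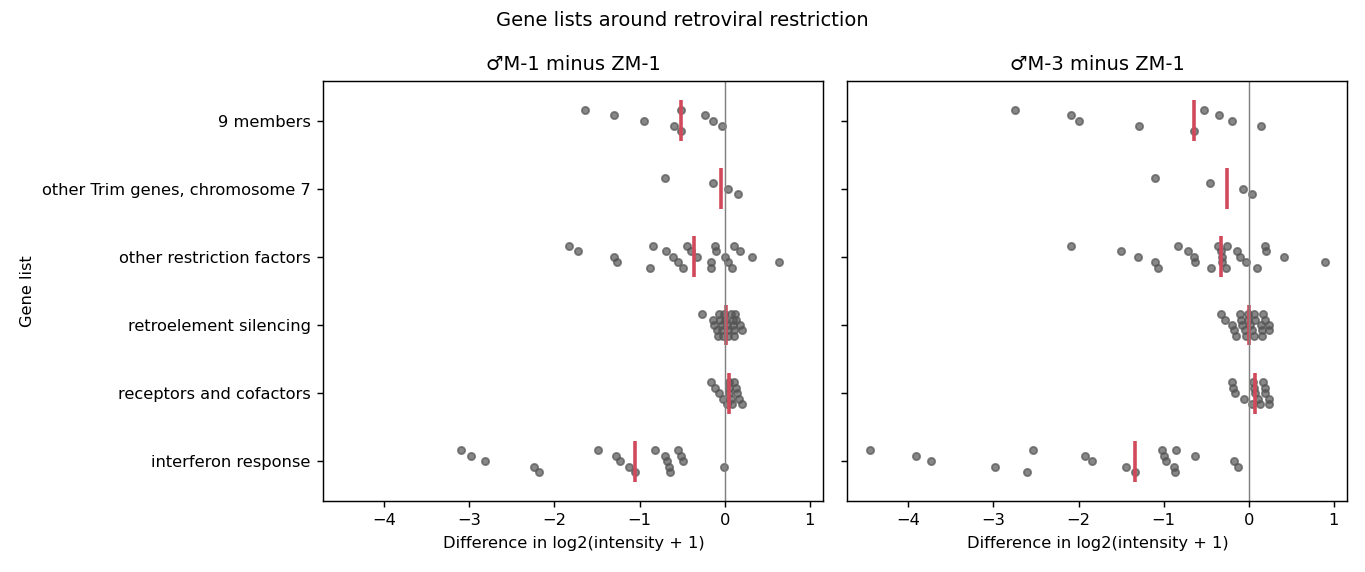
Differences in log2(intensity + 1) from ZM-1 (x axes) of ♂M-1 (left) and ♂M-3 (right) for the 9 members and 5 gene lists (y axis). Each point is a gene and red bars are medians. Medians of the members are −0.52 and −0.65, and those of the silencing list and of receptors and cofactors lie near 0.

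Interferon-response genes were lower in both ♂M lines along with the called members. Of 19 measured, limma called 18 as lower in ♂M-1 than ZM-1, beside 2.53% of all genes. In ♂M-3 it called 17 as lower than ZM-1, beside 7.20% of all genes. When every probe set was tested, the count was 12 for ♂M-1 and 17 for ♂M-3. Median log2 differences of the list were −1.06 for ♂M-1 and −1.33 for ♂M-3. The summed intensity of the list was 2993 to 3210.1 for ♂M-1, 2240 to 2311 for ♂M-3 and 7167 to 7780.5 for ZM-1. Cxcl10 did not pass, at 48.4 ± 0.527 for ♂M-1, 43.3 ± 6.80 for ♂M-3 and 48.7 ± 4.44 for ZM-1 (SD, n = 2 each). The other gene not called in ♂M-3 against ZM-1 was Stat2 (limma adjusted p = 0.357).

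Markers of other cell types also differed between the lines. Of 10 blood and immune cell markers, 4 were lower in ♂M-1 and 6 in ♂M-3 than ZM-1, beside 2.53% and 7.20% of all genes. Without any 1 array these counts ran from 2 to 5 and from 2 to 4. After median centring or quantile normalization, 4 were lower in ♂M-1 and 3 in ♂M-3. When every probe set was tested, both counts were 2. The markers' summed intensity was 1788 to 1865 for ♂M-1, 1901 to 1982 for ♂M-3 and 1955 to 2229 for ZM-1. The pan-leukocyte gene Ptprc averaged 30.4 ± 0.0832 for ♂M-1, 29.1 ± 0.926 for ♂M-3 and 36.1 ± 2.81 for ZM-1 (SD, n = 2 each). Of 12 fibroblast markers, 2 were lower in ♂M-1 and 10 in ♂M-3 than ZM-1, beside the same shares of all genes. Their sums were 8740 to 9294 for ♂M-1, 7605 to 8133 for ♂M-3 and 8969 to 9140.0 for ZM-1. Fn1 (fibronectin), which was not called, supplied most of each sum, and without it, a choice made after its level was seen, the sums were 3488 to 3789 for ♂M-1, 2334 to 2416 for ♂M-3 and 3872 to 3987 for ZM-1. The ♂M-3 count was 6 without ♂M-3 replicate 2, and the ♂M-1 count was 1 without either ♂M-1 array or ZM-1 replicate 1. Background levels were not used, so these intensities do not show whether the markers were expressed. The part of these markers in the differences of the members was not tested.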

How the data were processed

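Total RNA of 6 cultures was labelled with biotin and hybridised to whole-transcript arrays. The authors deposited 1 intensity per probe set and array, on a linear scale, and the submitters' processing notes name GCOS 1.4. How background was corrected, probes summarised and arrays normalized is not given in the sources used here. Of 35556 probe sets, 21789 carried 1 symbol, 1621 several, and 12146 were not in the probe table, whose annotation is old.

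For each gene the single-symbol probe set with the highest mean was kept. Values were taken as log2(intensity + 1), and limma 3.58.1 in R 4.3.3 fitted 1 mean per line to the 6 arrays (3 residual and 6.01 prior degrees of freedom). Tests were two-sided with a threshold of 0.05 after Benjamini-Hochberg adjustment, and the procedure was checked on simulated data. The members, lists and rules were chosen with earlier results of these data known. The rule for named genes took all members and, from each list, up to 4 called genes and up to 2 others with the highest level, and the 3 genes most alike for each member whose line means spanned at least 1 log2 unit. Adjacent genes were also described. Start windows came from RefSeq (GRCm38.p6). The number of arrays limits the precision.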

Additional observations from a re-analysis of the deposited data

How the results depend on the processing

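Of the 27 differences of members between lines, 12 were called, and 9 of these stayed called with the same sign under every alternative that kept the gene. The other 3 were Fv1, Trim12a and Trim34a in ♂M-1 against ZM-1, given above with the settings that ended the call. Members called in ♂M-1 against ZM-1 numbered 5, but 2 among genes above the 50th percentile, which leaves some members out, 2 when every probe set was tested, and 3 to 6 with 1 array left out (3 without ♂M-1 replicate 2). In ♂M-3 against ZM-1 they numbered 5, but 2 among genes above the 50th percentile and 8 with an intensity trend in the variance prior. Between ♂M-1 and ♂M-3 they numbered 2, but 1 among genes above the 50th percentile. That filter kept only Apobec3, Samhd1 and Bst2 of the members. With it, Bst2 and Samhd1 were called in both comparisons with ZM-1, and Bst2 between the ♂M lines. Samhd1 against ZM-1 and Bst2 between the ♂M lines were not called in the main fit. Fv1 and Trim12a were not tested under that filter.

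Over the alternatives, limma adjusted p ran from 0.00236 to 0.0693 for Fv1, 1.90e-04 to 0.0690 for Trim12a and 0.00512 to 0.0868 for Trim34a in ♂M-1 against ZM-1. In that comparison it ran from 0.00537 to 0.499 for Trim30d and 0.0340 to 0.396 for Samhd1. For ♂M-3 against ZM-1 it ran from 0.0174 to 0.245 for Trim12c, 0.00195 to 0.367 for Trim30d and 0.0380 to 0.355 for Samhd1, and for Bst2 between the ♂M lines from 0.0438 to 0.489.

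Over all genes, 880 were called in ♂M-1 against ZM-1, but 1632 with the intensity trend, 275 when every probe set was tested, and 234 to 631 with 1 array left out (367 without ♂M-1 replicate 1, 234 without ♂M-1 replicate 2 and 576 without ZM-1 replicate 2). In ♂M-3 against ZM-1, 3162 were called, but 2027 with every probe set and 1302 to 2750 with 1 array left out (1361 without ♂M-3 replicate 1, 1302 without ♂M-3 replicate 2 and 2077 without ZM-1 replicate 2). Between ♂M-1 and ♂M-3, 1303 were called, but 442 with every probe set and 357 to 1495 with 1 array left out (761 and 357 without ♂M-1 replicates 1 and 2, 468 and 419 without ♂M-3 replicates 1 and 2). The lone array of a line is then assumed to vary like those of the other lines.

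Signs turned in differences that were not called. Apobec3 in ♂M-1 against ZM-1 was 0.0159 after median centring and ran from −0.145 to 0.0783 with 1 array left out. Trim12c in that comparison ran from −0.271 to 0.00815. Between ♂M-1 and ♂M-3, Trim30d ran from −0.0724 to 0.0972 and Samhd1 from −0.0883 to 0.00175. The cause was not tested. With the replicate block, 686 genes were called for ♂M-1 and 2769 for ♂M-3 against ZM-1, with 5 members in each, and 1071 genes with 2 members between the ♂M lines. The deviations of same-numbered arrays from their line means correlated at 0.067 for ♂M-1 and ZM-1. The correlation was −0.105 for ♂M-3 and ZM-1 and −0.0346 for ♂M-1 and ♂M-3. Such values cannot show whether same-numbered arrays were handled together, and the labels do not say. The alternatives for neighbouring and listed genes were chosen after seeing the data.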
